A study of Mus musculus with 2 samples.

Results

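Gene-flanking Ring1b intervals are stretches of Ring1b binding that lie beside genes and away from gene starts, by the gene models of the deposited table. They were taken from the second of the deposited Ring1b interval sets (run 2). An interval was kept if the authors' gene table placed it upstream or downstream of every gene assigned to it, and if its summit lay more than 2500 bp from the start of each of those genes. This gave 393 of 3938 run 2 intervals, or 9.98% (exact 95% interval 9.06 to 11.0). Of these, 169 were upstream only, 157 were downstream only, and 67 were upstream of 1 gene and downstream of another. The remaining run 2 intervals comprised 2436 with a summit within 2500 bp of an assigned start, 684 inside a gene away from starts, and 425 assigned to no gene.

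The ChIP was made from the incisor pulp of 5-day-old CD1 mice. Each animal had been injected intraperitoneally with the thymidine analogue EdU, at 3.3 µg for each g of weight, 24 h before collection. EdU-positive cells, which had copied DNA after the injection, were sorted from the dissociated, fixed pulp and used for chromatin immunoprecipitation with sequencing (ChIP-seq). The study is labelled as 1 ChIP sample with 1 input sample from the same kind of cells. Its headers number the ChIP intervals as replicates 1 and 2. These are called runs here and count as 1 sample, so values carry no SD and no p-value, and whether the runs came from separate animals is not stated. The files used here hold no input values, and no source used here states the sequencing depth. The sort took cells by EdU and not by cell type, so strong binding in few cells cannot be told apart from weak binding in many. The height of an interval is the authors' value at its summit, a whole number whose scaling is not stated. Intervals of shares are exact Clopper-Pearson 95% intervals, which cover counting error only and treat neighbouring intervals as independent.

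Ring1b is the catalytic subunit of Polycomb repressive complex 1 (PRC1), which attaches ubiquitin to histone H2A and compacts chromatin. PRC1 is best known for holding developmental regulators such as Hox genes silent, and it is recruited chiefly at unmethylated CpG islands around gene starts. At strong targets PRC1 and the H3K27me3 mark of PRC2 can extend over a whole locus, including the DNA on either side of the gene. In the continuously growing mouse incisor, EdU uptake in the pulp marks cells that include the transit amplifying cells, which divide before they become odontoblasts.

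Some of the flanking intervals held an annotated start, in most cases one that the deposited gene table does not use. RefSeq promoter windows, running from 250 bases before to 50 bases after a start, lay wholly within 12 flanking intervals. Of these 12 intervals, 7 were upstream, 1 was downstream and 4 were both. The windows of 6 of them are shown because they are the sequence that the highest such intervals covered. All are from GRCm38.p6, the build that mm10 names, and read 5′ to 3′ along the transcript, with capitals marking each CG. Tal1 (chr4:115057561-115057860, plus strand), Gata2 (chr6:88193641-88193940, plus strand) and Fezf1 (chr6:23248215-23248514, minus strand) are starts of the assigned gene itself, and the Fezf1 start is also the one in the deposited table, which the wide interval reached although its summit lay 5304 bp away. Gm29905 (chr15:102998118-102998417, minus strand) lies between Hoxc6 and Hoxc8. Gm33152 (chr1:78200972-78201271, plus strand) lies upstream of Pax3, and Gm42107 (chr5:88565509-88565808, minus strand) downstream of Utp3.

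Tal1: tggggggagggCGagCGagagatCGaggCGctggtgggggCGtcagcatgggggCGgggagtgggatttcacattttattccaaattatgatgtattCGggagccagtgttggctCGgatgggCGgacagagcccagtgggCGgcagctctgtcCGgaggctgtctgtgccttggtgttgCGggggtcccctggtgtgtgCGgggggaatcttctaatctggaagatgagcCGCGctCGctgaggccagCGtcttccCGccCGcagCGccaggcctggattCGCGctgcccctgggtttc
Gata2: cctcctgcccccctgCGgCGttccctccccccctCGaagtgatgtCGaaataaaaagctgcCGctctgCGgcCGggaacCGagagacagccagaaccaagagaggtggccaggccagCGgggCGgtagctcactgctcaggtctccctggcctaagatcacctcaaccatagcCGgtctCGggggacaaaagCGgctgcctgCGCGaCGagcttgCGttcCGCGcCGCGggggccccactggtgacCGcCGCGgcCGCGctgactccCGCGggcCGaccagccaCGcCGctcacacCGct
Fezf1: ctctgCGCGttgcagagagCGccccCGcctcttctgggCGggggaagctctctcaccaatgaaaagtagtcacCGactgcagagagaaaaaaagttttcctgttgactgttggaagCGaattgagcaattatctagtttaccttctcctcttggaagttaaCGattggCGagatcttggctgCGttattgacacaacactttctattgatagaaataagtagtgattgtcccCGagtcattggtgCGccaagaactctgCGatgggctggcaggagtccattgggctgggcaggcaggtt
Gm29905: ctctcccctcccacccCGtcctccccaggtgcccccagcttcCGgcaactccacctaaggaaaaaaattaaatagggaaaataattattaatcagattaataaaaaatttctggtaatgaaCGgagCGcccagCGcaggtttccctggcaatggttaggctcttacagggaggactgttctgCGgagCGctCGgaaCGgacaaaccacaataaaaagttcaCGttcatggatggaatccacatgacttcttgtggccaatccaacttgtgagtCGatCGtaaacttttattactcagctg
Gm33152: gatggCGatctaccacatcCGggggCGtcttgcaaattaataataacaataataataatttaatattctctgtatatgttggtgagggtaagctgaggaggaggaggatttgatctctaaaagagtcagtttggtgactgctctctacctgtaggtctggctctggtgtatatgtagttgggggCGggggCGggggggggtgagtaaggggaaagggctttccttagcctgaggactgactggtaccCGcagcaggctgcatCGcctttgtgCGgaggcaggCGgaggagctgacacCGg
Gm42107: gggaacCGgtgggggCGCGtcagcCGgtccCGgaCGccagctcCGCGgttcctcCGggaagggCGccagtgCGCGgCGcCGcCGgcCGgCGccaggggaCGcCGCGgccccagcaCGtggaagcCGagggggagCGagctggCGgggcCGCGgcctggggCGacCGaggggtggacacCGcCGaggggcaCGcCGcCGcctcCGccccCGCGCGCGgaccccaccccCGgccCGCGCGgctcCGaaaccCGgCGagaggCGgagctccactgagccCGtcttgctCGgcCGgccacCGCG

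The CG dinucleotide, which reads the same on both strands, occurred 22 times in the Tal1 window, 32 times in Gata2, 13 in Fezf1, 12 in Gm29905, 10 in Gm33152 and 51 in Gm42107. Of all 32851 RefSeq windows of this length, 94.6% held at least 1 CG and the median was 7. The 12 windows in flanking intervals had a median of 16.5 CGs (9 to 51), against 30 in the 921 windows within start intervals. Thus 41.7% of the windows in flanking intervals, 84.1% of those in start intervals and 26.5% of all windows held 20 or more CGs. The windows in flanking intervals lay between those in start intervals and the genome's windows in CG content. Their number is small, and a count of CGs is a description of the letters alone.

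The distance of 2500 bp was set on the starts of the deposited table, and RefSeq has others. Of the 388 flanking intervals outside chromosome 18, for which RefSeq starts were at hand, 54 (13.9%, 10.6 to 17.8) had a RefSeq start within 2500 bp of the summit. These were 27 upstream (16.3%), 17 downstream (10.9%) and 10 intervals of both kinds. The start belonged to the assigned gene in 12 cases, of which 9 were upstream, 0 downstream and 3 both. In the other 42 cases (10.8%, 7.91 to 14.3) it belonged to another gene, compared with 11.2% (8.31 to 14.6) of intervals assigned to no gene. Long noncoding RNAs (lncRNAs) accounted for 35 of the 54 starts and protein-coding genes for 19.

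RefSeq gene bodies covered the summit of 132 flanking intervals (33.6%, 28.9 to 38.5), although the deposited table placed none of them inside an assigned gene. In 57 of these cases (14.5% of flanking intervals, 11.2 to 18.4) the RefSeq body was that of an assigned gene itself, with 32 upstream, 10 downstream and 15 both-sided. The share was 42.0% (34.5 to 49.8) of upstream and 23.6% (17.2 to 31.0) of downstream intervals, and these intervals do not overlap. A lncRNA body held the summit of 40 of 169 upstream and 22 of 157 downstream intervals. Leaving out every interval with its summit inside a RefSeq gene or within 2500 bp of a RefSeq start left 247, of which 92 were upstream, 113 downstream and 42 both. The upstream share of one-sided intervals was 51.8% (46.3 to 57.4) by the deposited table, which does not separate the sides, and 44.9% among intervals outside all RefSeq genes.

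Flanking intervals were denser nearer to the genes, with no allowance made for the sequence that the rule leaves at each distance. Upstream summits lay a median of 4647 bp from the nearest assigned start (2508 to 11146). They numbered 92 between 2.5 and 5 kb, 44 between 5 and 7.5 kb, 29 between 7.5 and 10 kb and 4 beyond that. This corresponds to 36.8, 17.6, 11.6 and 1.6 intervals per kb. Downstream summits lay a median of 2923 bp past the nearest assigned gene end (48 to 10187). They numbered 66 in the first 2.5 kb, then 40, 29, 18 and 4 in each further 2.5 kb. The densities downstream were 26.4, 16, 11.6, 7.2 and 1.6 per kb. Within 10 kb, density fell with distance on both sides. The rule leaves out the 2.5 kb next to a start. Next to an end it leaves out no such zone, except where a gene is shorter than 2.5 kb. Counts upstream and downstream are thus not of equal windows. The deposited table also assigned intervals only to genes within about 10 kb, so the last bin on each side is cut short by the assignment. Summits inside another assigned gene, or within 2500 bp of its start, are left out too. The densities were not adjusted for this loss, and its share in the fall with distance was not tested. Between 2.5 and 5 kb from the start or the end, the density was 36.8 per kb upstream and 16 per kb downstream. Height changed little with distance, with medians of 5, 4 and 5 upstream at 2.5 to 5 kb, 5 to 7.5 kb and beyond, and of 5, 5, 5 and 4.5 downstream at 0 to 2.5 kb, 2.5 to 5 kb, 5 to 7.5 kb and beyond.

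**Figure D1:**
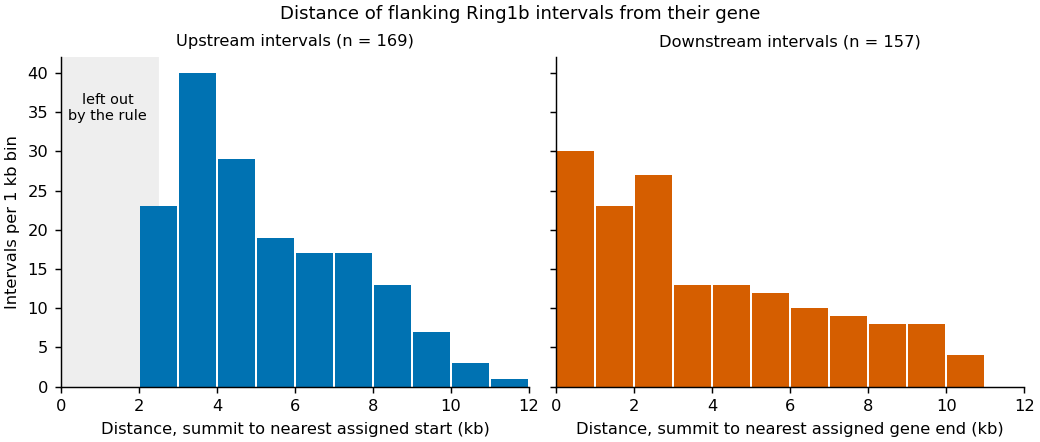
Number of upstream intervals (left) by distance of the summit from the nearest assigned start, and of downstream intervals (right) by distance past the nearest assigned gene end, in 1 kb bins. The grey zone is left out by the rule, so the bin from 2 to 3 kb upstream holds only summits beyond 2.5 kb. The fullest bins are 3 to 4 kb upstream, with 40 intervals, and 0 to 1 kb downstream, with 30.

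The limit at 2500 bp cut through a continuous range. Just inside it were intervals at Onecut2 (2508 bp, height 3), Zfp36l1 (2545 bp, height 8), Six6 (2590 bp, height 3) and Wnt3a (2598 bp, height 3). Intervals just outside included those at Neurog2 (2489 bp, height 10) and Cux2 (2479 bp, height 5). The distance is that of the summit, so an interval may still reach a gene edge. It did so at 1 assigned start, that of Fezf1, and at 20 assigned gene ends, 13 of them in downstream-only intervals.

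Upstream and downstream intervals were much alike in height and width. The median height was 5 (quartiles 4 to 6) upstream, downstream, in intervals of both kinds and at starts, and 4 inside genes and in unassigned intervals. Heights of 10 or more were reached by 7 upstream (4.14%, 1.68 to 8.35), 10 downstream (6.37%, 3.10 to 11.4) and 4 intervals of both kinds (5.97%), against 99 start intervals (4.06%, 3.32 to 4.93). The intervals of these shares overlap, so no difference in tall intervals was detectable at these counts. Median width was 699 bp upstream (95% interval 671 to 728) and 682 bp downstream (649 to 739), against 698 bp at starts (691 to 706). Widths of 2000 bp or more occurred in 27 flanking intervals (6.87%, 4.58 to 9.84), against 89 start intervals (3.65%, 2.94 to 4.48). Broad intervals were thus more frequent among all flanking intervals than at starts. Inside genes away from starts the share was 4.24% (2.86 to 6.03), and its interval overlaps that of all flanking intervals. The shares of 5.33% (2.46 to 9.87) upstream, 7.01% (3.55 to 12.2) downstream and 10.4% (4.30 to 20.3) between a pair of genes each had an interval overlapping that of starts.

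**Figure D2:**
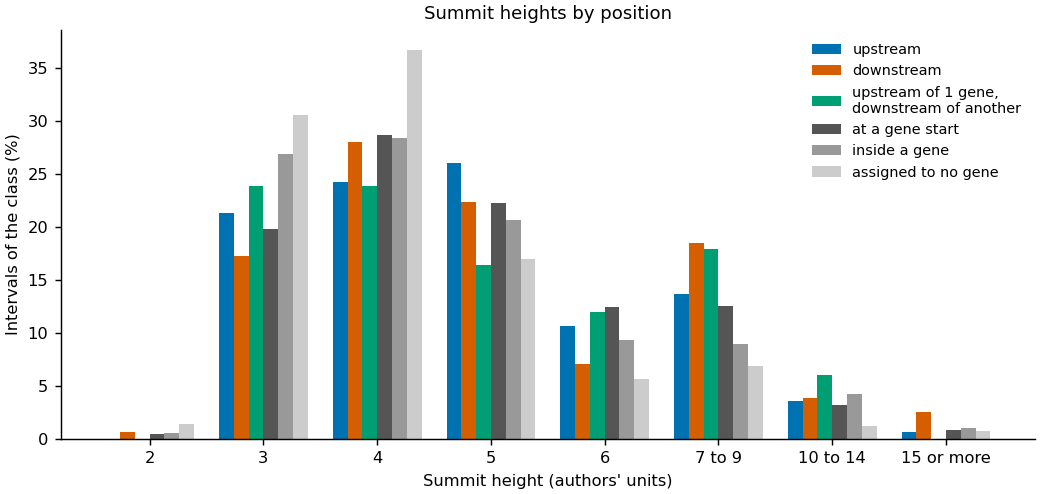
Share of intervals (%) at each summit height, in the authors' units, for upstream, downstream and both-sided flanking intervals and for start, in-gene and unassigned intervals. The flanking classes and the start class share a median of 5, and the in-gene and unassigned classes have a median of 4.

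The highest upstream interval, of height 24, lay at Tal1, a basic helix-loop-helix factor of blood formation (chr4:115056251-115059474, 3224 bp wide). It held the Tal1 window printed above, whose start lay 1059 bp from the summit. The summit lay 2775 bp from the start in the deposited table but 326 bp from a further RefSeq start of the gene, whose window is not printed. No other upstream interval exceeded 13. That height was reached at Sp8, a zinc finger factor of limb and brain development (chr12:118841342-118843572), and at Zdbf2, an imprinted gene (chr1:63264361-63265405), where the summit lay inside the RefSeq body of Zdbf2. Dleu2, a lncRNA that hosts a microRNA pair, and Foxd3, a forkhead factor of the neural crest, followed with 11. Nfib and Six2, regulators of lung and kidney progenitors among other tissues, had 10. Mecom, a zinc finger factor of blood stem cells, had 9, as did Onecut2 and the predicted gene Gm17580. The widest were at Onecut2 (3834 bp), Tal1, Dleu2 (3146 bp), Gata2 (2906 bp) and Sim2 (2634 bp). Apart from Zdbf2, Dleu2 and Gm17580, all of these named genes encode transcription factors.

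The highest downstream interval exceeded the highest upstream one, although the shares of tall intervals on each side could not be told apart. At Otx1, a homeobox gene of the forebrain, the interval with its summit past the 3′ end had a height of 27 (chr11:21991976-21995385), the highest of all flanking intervals. It spanned 3410 bp, beginning inside the gene, and a second downstream interval of height 6 followed it. Tlx3, a homeobox gene of sensory neurons, had a downstream interval of height 18 (chr11:33199440-33201812), which is also assigned to its neighbour Ranbp17. Otp, a homeobox gene of the hypothalamus, and Evx2, the homeobox gene beside the Hoxd cluster, had intervals of 15. Foxa1 had 14, Gm2102 and Meis1 had 12, Rimbp3 had 11, and Hmx1 and Foxa2 had 10. Foxa1 and Foxa2 encode forkhead factors of the endoderm, Meis1 a Hox cofactor and Hmx1 a homeobox factor of craniofacial sensory structures. Shox2, a homeobox gene of palate and limb, had the widest downstream interval (3693 bp, height 8). The summits of this interval and of that at Hmx1 lay inside the RefSeq body of the gene itself. Rimbp3, a gene of sperm formation, differed from the others in that its interval was only 448 bp wide, and no run 2 interval lay at its start.

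Intervals between a pair of genes were highest at Fezf1 and Cadps2. This interval was 7396 bp wide with a height of 14 (chr6:23247211-23254606), upstream of Fezf1, a zinc finger gene of the forebrain, and downstream of Cadps2, a gene of vesicle release. Next came the interval between Foxl2, a forkhead gene of the ovary, and its opposite-strand transcript Foxl2os, with 13. Those within Hox clusters followed, with 11 at Hoxa11 and Hoxa13, 10 at Hoxc8 and Hoxc6, and 9 at Hoxd9 to Hoxd12. Because Hox genes are closely packed, such an interval counts as upstream for some genes and downstream for others.

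Most flanking intervals belonged to genes that also had Ring1b at the start. A run 2 interval lay within 2500 bp of the start of an assigned gene for 261 of the 393 (66.4%, 61.5 to 71.1). The share was 65.7% (58.0 to 72.8) upstream, 62.4% (54.3 to 70.0) downstream and 77.6% (65.8 to 86.9) for both-sided intervals, against 43.1% (39.4 to 46.9) of intervals inside genes away from starts. Those with a start interval had a median height of 5 and width of 781 bp, and those without had 4 and 643.5 bp. Each flanking interval was then set against the highest start interval of its assigned genes. This choice favours a lower flanking value, and neighbouring flanking intervals can share the same start interval. The flanking interval was lower than the highest start interval in 186 of the 261 (71.3%, 65.4 to 76.7), equal in 24 and higher in 51 (19.5%, 14.9 to 24.9). Intervals inside genes away from starts were lower in a similar share, 70.2% (64.6 to 75.3). Median heights were 5 for the flanking and 8 for the start interval, a median difference of -3.

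**Figure D3:**
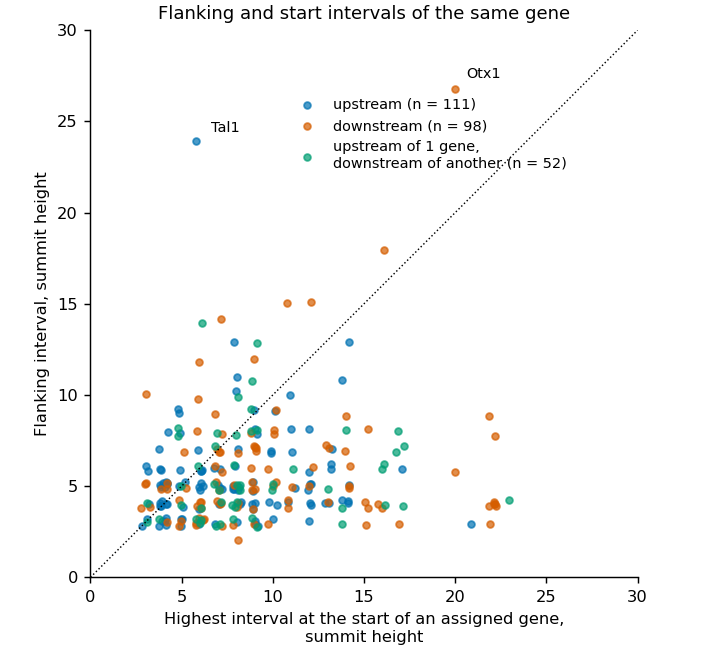
Summit height of each flanking interval against the highest interval at the start of an assigned gene, for 111 upstream, 98 downstream and 52 both-sided intervals, in the authors' units, with points moved slightly apart so that ties can be seen. Points above the dotted line of equality are the 51 flanking intervals higher than the start interval, with Tal1 (24 against 6) and Otx1 (27 against 20) the highest.

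The 51 exceptions included several of the highest flanking intervals. At Tal1 the upstream interval had 24 and the start interval 6, although the summit of the former lay 326 bp from a further RefSeq start of Tal1. At Fezf1 and Cadps2 the values were 14 and 6. The 6 is that of the Cadps2 start, at the far end of a gene of 576648 bp. The flanking interval itself covers the Fezf1 start. Foxa1 had 14 downstream against 7 at the start, Hmx1 10 against 3, and Foxa2 10 against 6. By RefSeq, this Hmx1 summit lay inside Hmx1 and 445 bp from the start of the lncRNA A930033C23Rik. The Foxa2 summit lay 380 bp from the start of the lncRNA 9030622O22Rik. Sp8 had 13 upstream against 8, and Nkx2-5, a homeobox gene of the heart, 8 against 4. Otx1, Otp and Meis1 had 27, 15 and 12 downstream against 20, 12 and 9. Exceptions occurred on both sides, in 23 of 111 upstream pairs (20.7%, 13.6 to 29.5), 20 of 98 downstream pairs (20.4%, 12.9 to 29.7) and 8 of 52 both-sided pairs (15.4%, 6.88 to 28.1). For intervals inside genes away from starts the share was 19.3%, or 57 of 295, close to that of flanking intervals.

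Flanking intervals lay close to other Ring1b intervals, which the rule itself favours. A flanking interval lies within about 10 kb of an assigned gene, so an upstream one is near any interval at that gene's start. Unassigned intervals lie farther than this from every gene. A chain with a start interval, as defined below, held 111 of the 169 upstream and 68 of the 157 downstream intervals. How much of the contrast between classes is set by the rule was not tested. The median gap to the nearest other run 2 interval was 1497 bp (2295 bp upstream, 1086 bp downstream and 1256 bp for both-sided intervals), against 85.3 kb for start intervals and 149 kb for unassigned ones. Another interval lay within 10 kb for 282 flanking intervals (71.8%, 67.0 to 76.2), 30.2% of start intervals (28.4 to 32.1) and 44.0% of in-gene intervals (40.2 to 47.8). The shares upstream (69.8%, 62.3 to 76.6) and downstream (70.1%, 62.2 to 77.1) were nearly equal. When run 2 intervals with gaps of at most 10 kb were joined into chains, 116 of the 250 chains that held a flanking interval also held a start interval. A further 111 flanking intervals stood alone, with no other interval within 10 kb. Chains with 5 or more flanking intervals numbered 7 and together held 46 of the 393.

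**Figure D4:**
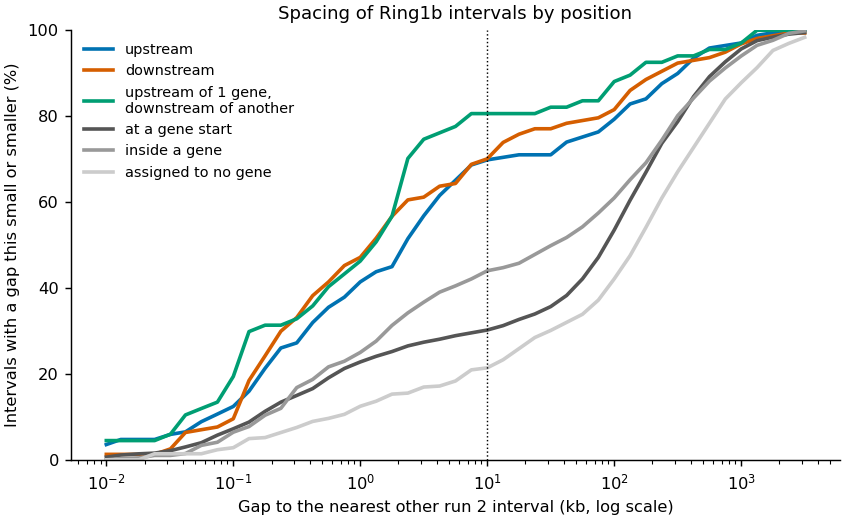
Cumulative share of intervals (%) whose gap to the nearest other run 2 interval is no larger than the value on the x axis (kb, log scale), by class. At 10 kb (dotted line) the upstream, downstream and both-sided curves stand at 69.8%, 70.1% and 80.6%, above those of in-gene (44.0%), start (30.2%) and unassigned (21.4%) intervals.

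At a few genes the flanking intervals formed long stretches. Meis2, a Hox cofactor gene of the same family as Meis1, had 8 downstream intervals that covered 76.8% of 8.46 kb beyond its 3′ end (chr2:115852801-115861263). Their heights were between 3 and 9, well below the 22 of its start interval, which lies at the other end of the 204 kb gene. Meis1 had 7 downstream intervals that covered 79.9% of 10.3 kb (chr11:18869849-18880155), with heights of 3 to 12 against 9 at the start, and 2 more upstream. Of the 7 Meis1 summits, 5 lay inside the body of the RefSeq lncRNA 8430419K02Rik, and 1 of these was 290 bp from its start. The Meis2 summits lay in no RefSeq gene, and at least 46273 bp from any RefSeq start. Nkx2-5 showed the reverse arrangement, with 6 upstream intervals that covered 69.4% of 6.64 kb, heights of 3 to 8 and only 1 interval downstream. The summit of the one with height 8 lay inside the RefSeq body of Nkx2-5. Uncx, a homeobox gene of the vertebral column, had 6 downstream intervals with heights of 4 to 8 that covered 58.8% of 9.80 kb.

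**Figure D5:**
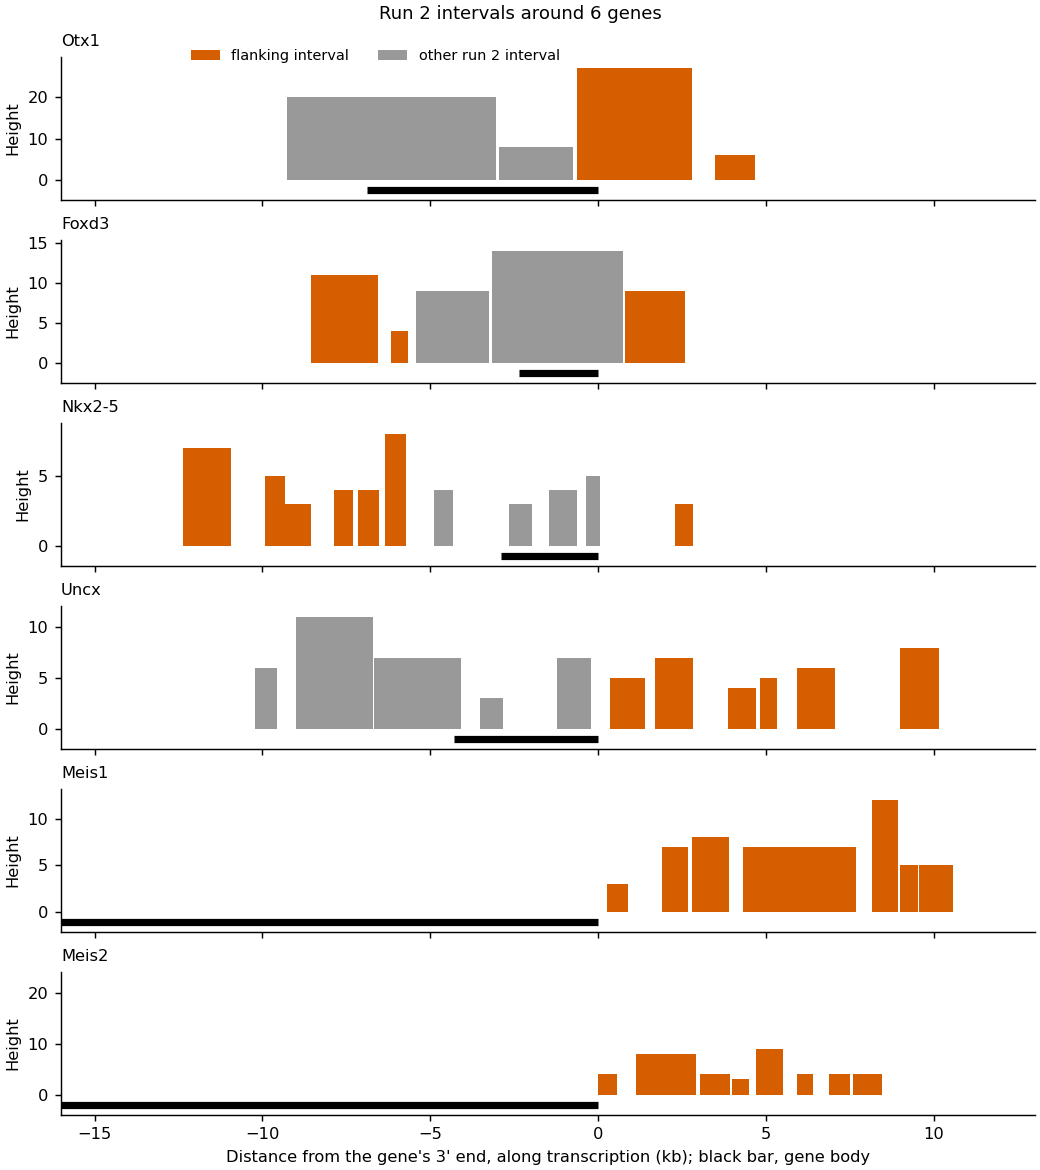
Run 2 intervals around 6 genes, drawn to scale by distance from the gene's 3′ end along the direction of transcription (kb), with summit height (authors' units) as the height of each box. Flanking intervals are orange, other intervals grey, and the black bar is the gene body, which runs beyond the left edge for Meis1 and Meis2. The tallest box with its summit past a 3′ end is that of Otx1, at 27, which begins inside the gene. The longest run of boxes past a 3′ end is that of Meis2, with 8.

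Shorter stretches were found at Zic2 (4 downstream intervals over 7.98 kb, heights 4 to 8) and Sox21 (4 downstream over 6.24 kb, heights 5 to 7). Zic2 encodes a zinc finger factor of the neural tube and Sox21 an HMG-box factor. Zdbf2 had 4 upstream intervals over 5.16 kb, all with summits inside its RefSeq body, with a median height of 4.5 beside the highest one of 13. Cdkn2a, which encodes cell cycle inhibitors, had 3 downstream intervals of heights 4, 4 and 7. Among 354 genes with a flanking interval, 247 had 1, 65 had 2, 23 had 3 and 19 had 4 or more. Flanking intervals on both sides were found at 26 genes, among them Foxd3, with heights of 11 and 4 upstream and 9 downstream. Others with both were Meis1, Nkx2-5, Zic2, Otp, Sp8, Sp9, Msx2, Eomes and Hoxd9 to Hoxd12.

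Developmental transcription factors were prominent among the flanked genes. Of 21887 protein-coding RefSeq genes, 1.32% had a flanking interval (0.717% upstream and 0.713% downstream), and 10% had a run 2 interval at the start. Of 39 Hox genes, 28 (71.8%, 55.1 to 85.0) had a flanking interval, 17 upstream and 18 downstream. Since neighbours in a cluster share intervals, these 28 genes rested on 23 intervals. Of 85 other developmental transcription factors, 42 (49.4%, 38.4 to 60.5) had one, 23 upstream and 25 downstream. Of 30 transcription factors of tooth development, 10 (33.3%, 17.3 to 52.8) had one, 4 upstream and 7 downstream. They included Shox2, Sp7, Barx1, Msx2, Pitx1, Hand2, Tfap2a, Dlx1 and Dlx2, with highest heights of 8, 6, 5, 5, 5, 4, 4, 3 and 3. All 3 lists lay far above the 1.32% of all protein-coding genes, and upstream and downstream counts were close in the Hox and developmental lists. The lists also lay far above the 10% of all protein-coding genes with an interval at the start. There the shares were 76.9% of Hox genes, 80% of the other developmental factors and 60% of the tooth factors. The excess is thus not particular to flanking intervals.

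By the gene descriptions in the deposited table, 61 of the 354 flanked genes (17.2%, 13.4 to 21.6) were named homeobox genes, against 3.53% (2.92 to 4.23) of the 3203 genes with a start interval and 8.19% (6.26 to 10.5) of the 696 with an in-gene interval. The share was 10.9% (6.26 to 17.4) for upstream, 14.5% (8.84 to 22.0) for downstream and 31.0% (22.8 to 40.3) for both-sided intervals. Forkhead genes made up 3.67% (1.97 to 6.20) of flanked genes and 0.718% (0.456 to 1.08) of genes with a start interval. Zinc finger genes showed no such excess, with 3.39% (1.76 to 5.85) and 3.53% (2.92 to 4.23). Ribosomal genes gave 0.565% (0.0685 to 2.03) and 0.843% (0.556 to 1.22), which could not be told apart.

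Signalling genes were flanked less than the transcription factor lists but at shares above the 1.32% of all protein-coding genes. Their shares with an interval at the start were also above the 10% of all such genes. These were 23.1% for Wnt, 37.1% for BMP and TGF-beta and 26.7% for FGF and Hedgehog genes. Of 52 Wnt pathway genes 4 had a flanking interval (7.69%, 2.14 to 18.5), namely the nuclear effector Lef1 (5, upstream), the ligands Wnt10a (5, downstream) and Wnt3a (3, upstream), and the secreted inhibitor Sfrp2 (4, downstream). Of 35 BMP and TGF-beta genes, only the target genes Id3 (6, upstream) and Id1 (4, downstream) had one (5.71%, 0.700 to 19.2). Ptch1, the Hedgehog receptor, was the single gene of 30 in the FGF and Hedgehog list, with 2 upstream intervals of height 5 (3.33%, 0.0844 to 17.2). The intervals of these last 2 lists include the share of all genes. Polycomb genes gave 3 of 33 (9.09%, 1.92 to 24.3), among them Bmi1 (8, downstream) and Cbx8 (3, upstream), both of which encode PRC1 subunits. Cell cycle genes gave 3 of 32 (9.38%), the inhibitors Cdkn2a (7) and Cdkn1b (5) downstream and cyclin D1, Ccnd1 (4), upstream.

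Of 15 mesenchymal stem cell genes only Foxd1 had flanking intervals, with heights of 4, 3 and 3 downstream. Of 15 odontoblast genes only Wnt10a had one, of 12 epithelial genes only Trp63 (3, upstream) and of 8 erythroid genes only Tal1. No gene of the lists of 10 endothelial, 10 immune, 10 neural and glial and 9 muscle genes had one, which allows shares of up to 30.8% and, for muscle, 33.6%. No gene of 24 housekeeping genes had one either, which allows a share of up to 14.2%, although 5 of the 24 had an interval at the start. Lists of this size cannot be told apart from the 1.32% of all protein-coding genes. Binding data do not give the cell types in the sample, so the labelled tissue could not be checked from these lists.

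The 128 flanking intervals at genes of the Hox, developmental and tooth factor lists (32.6%) were wider and more closely spaced than the other 265. Median width was 830 bp and the median gap to another interval 347 bp at the list genes, against 677 bp and 3480 bp at the other genes. Another interval lay within 10 kb for 97.7% of those at list genes and 59.2% of the others. The median height was 5 in both groups.

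Flanking intervals whose genes had no interval at a start of the deposited table were mostly low. The highest were at Rimbp3 (11), the predicted gene Gm21188 (9 and 9), 4933411K20Rik (8), Utp3 (8), Zbtb18 (7) and the cluster of the let-7 microRNA genes Mirlet7d, Mirlet7f-1 and Mirlet7a-1 (7). The Zbtb18 summit, however, lay 655 bp from a RefSeq start of Zbtb18 itself. That of 4933411K20Rik lay inside the RefSeq body of the same gene, named Cfap97 there. The Utp3 interval held the CG-rich Gm42107 window printed above and lay 240 bp from a start of Rufy3, and its gap to the nearest other interval was 110075 bp. The 3 intervals of Gm21188 lay downstream of it within 8.56 kb, with heights of 9, 9 and 5. The summit of the narrower one with height 9 (410 bp wide) lay 157 bp from a RefSeq start of Gm36079.

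Few flanking intervals were also called in run 1, which held 465 intervals in all. Run 1 overlapped 16 of the 393 (4.07%, 2.34 to 6.53), against 46 start intervals (1.89%, 1.39 to 2.51), 17 in-gene intervals (2.49%) and 4 unassigned ones (0.941%). The 16 comprised 6 upstream (3.55%), 7 downstream (4.46%) and 3 both-sided intervals (4.48%). With an overlap of at least 50% of the shorter interval, the shares were 2.54% (1.23 to 4.63) of flanking and 1.48% (1.04 to 2.04) of start intervals, whose intervals overlap. The 16 flanking intervals were met by 14 run 1 intervals. They lay at Tal1 (24 in run 2, 4 in run 1), Six2 (10 and 6), Nkx2-3 (5 and 7), Ptch1 (5 and 3), Tlx3 (18 and 3), Foxa1 (14 and 3), Meis1 (7 and 5), Fezf1 (14 and 5), Hoxd9 to Hoxd12 (9 and 3) and Zic2 (7 and 5), with 2 intervals each at Foxd3, Otp and Meis2 that shared 1 run 1 interval. Apart from Ptch1, these named genes encode transcription factors. The highest of all, at Otx1, was not overlapped by run 1.

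A second view of run 1 came from the mean heights that the deposited table gives per gene. At genes with a single interval over both runs, the run 2 mean equalled the summit height in 2929 of 2929 cases. The run 1 mean there was therefore read as the run 1 height at the same interval. It was 0 at 76 of 100 such flanking intervals (76%, 66.4 to 84.0), 39 of 47 upstream (83.0%, 69.2 to 92.4) and 27 of 39 downstream (69.2%, 52.4 to 83.0). At single start intervals it was 0 in 902 of 1594 (56.6%, 54.1 to 59.0), and at single in-gene intervals in 198 of 274 (72.3%, 66.6 to 77.5). Single flanking intervals as a whole lacked a run 1 height more often than single start intervals and about as often as single in-gene ones. The interval of the downstream share includes the share at starts. All of these classes had a median run 2 height of 4. The first comparison with run 1 covers all flanking intervals, clusters included. The second covers only intervals that are alone at their gene over both runs. A gene with an interval called in run 1 as well is thus left out, which favours low run 1 heights in every class.

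Across chromosomes, flanking intervals made up between 4.42% of run 2 intervals (5 of 113 on chromosome 18) and 18.8% (35 of 186 on chromosome 13). Chromosome 2, with Meis2, Evx2, Foxa2 and the Hoxd cluster, held 9 upstream and 28 downstream intervals. Chromosome 6, with the Hoxa cluster and Fezf1, held 12 of the 67 both-sided intervals.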

How the data were processed

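Reads were aligned with BWA to mm10 and intervals called with SICER, per the submitters' processing notes, which give no versions. The deposited interval track gives each run 2 summit a score, used here as its height, and the interval's coordinates. The deposited gene table gives peak and mean heights as signal values per gene, with each interval's position and distance to the gene's start. Neither their scaling nor the depth is stated in any source used here. The deposited list of web tracks was left out. Run 1 was used only where named.

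Classes, gaps, chains and overlaps (at least 1 bp) were computed with pandas 2.3.3, scipy 1.17.1 and numpy 2.4.6 in Python 3.11.15, and figures with matplotlib 3.10.9. Intervals of medians come from binomial order statistics. The classification was tested on simulated data and put 1000 of 1000 intervals in their class. RefSeq (GRCm38.p6) gave gene spans, biotypes and promoter windows. It held 3635 of 3751 run 2 gene identifiers, and no windows for chromosome 18. Interval sequences were not used here, since no genome was read.

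The members and gene lists were chosen with earlier results of these data known. Named genes are those of the 10 highest and 5 widest upstream and downstream intervals, the 5 highest both-sided ones and up to 4 members per list. Some genes that these rules take are not reported here. Other genes, such as further tooth factors and those in stretches, on both sides, without a start interval or overlapped by run 1, were named after their values were seen. With 1 ChIP sample, no p-value was computed. Alternatives are given in the closing section.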

Additional observations from a re-analysis of the deposited data

How the results depend on the processing

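Of 82 alternative values, 55 stayed within the counting error or 1.5 times the count, and 27 moved. Heights of at least 5 or 6 left 212 and 122 flanking intervals. They raised the median height to 6 and 7 both upstream and downstream, and the median width to 880.5 and 1013.5 bp upstream and 818 and 953.5 bp downstream. The share overlapped by run 1 became 6.60% and 9.02%, and with an overlap of at least 50% it was 2.54%. Taking run 1 intervals gave 54 flanking intervals, with a median height of 3 downstream, median widths of 600 bp upstream and 636 bp downstream, and a start interval in 33.3%. Summits more than 5000 bp from starts numbered 248. Which side held more intervals depended on the rule: the upstream share was 62.4% with starts beyond 1000 bp, 35.5% beyond 5000 bp, 46.2% by the nearest gene only and 49.0% at heights of at least 6. The share with a start interval was 75.2% with starts beyond 1000 bp, and 49.9% where the start interval had to lie within 1000 bp. Chosen after seeing the data, the highest interval of each chain gave 250 intervals, 52% with a start interval. Intervals outside RefSeq genes and starts, also chosen after seeing the data, numbered 247, with an upstream share of 44.9%. Height limits leave fewer intervals by construction, whereas starts beyond 1000 bp gave 533 and the nearest gene only gave 405. The start limit sets how much of the upstream window is left, so the upstream share depends on it by construction. Other causes of these shifts were not tested. No paired analysis was possible because only 1 ChIP sample is labelled, and for the same reason no replicate could be left out. Unknown depth limits what absence of an interval shows.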
